A study of Mus musculus with 4 samples.

Results

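The 52 genes described here act in mitosis: they encode the cyclin-dependent kinase that starts division and its activators, the proteins of the centromere, kinetochore and spindle, the checkpoint that watches over chromosome attachment, the machinery of anaphase and cytokinesis, and proteins that compact chromosomes. They were chosen by name, from a list of 52 symbols, out of 40213 gene symbols in the files. All 52 were found, and all 52 passed the filter on low values (1 scaled CPM or more in 2 or more of the libraries), as did 11588 genes in all, so that every one was tested. The series holds 4 RNA sequencing libraries of RAW264.7 cells, an established mouse macrophage line that came from a virus-induced tumour and that divides in culture. RNA was taken after a further 48 h of culture. The titles name 2 libraries Gel and 2 libraries CuNZ@Gel, read here as the gel without and with CuNZ, a name that the labels do not spell out. The treatment text names CuNZ@Gel alone, and no label gives a dose, an untreated group or separate cultures for the replicates, so that a p-value here sets a difference against the spread of these 4 libraries only, which could be technical. The comparison asks how the level of mitotic transcripts differed between macrophages kept with CuNZ@Gel and with Gel.

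As background, a cell enters mitosis when CDK1 bound to cyclins A and B becomes active. Kinetochores, built on centromeres that carry the histone variant CENP-A, then capture spindle microtubules, and the spindle assembly checkpoint holds back the ubiquitin ligase APC/C until every chromosome is attached. Most of these transcripts are made late in the cell cycle, when the MuvB complex with B-MYB and FOXM1 activates their promoters, and are kept low in resting cells by the DREAM complex. In a culture of dividing cells their summed level is known to follow how many cells are near mitosis. In bulk RNA, fewer cells in that phase and less RNA in each such cell cannot be told apart.

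Values are scaled CPM, that is, CPM divided by 1 further factor per library and not by gene length. Library totals recovered from the values ranged from 13716000 to 14880000 reads. The fewest reads behind any value of a listed gene, 96, belonged to Cenpm. Libraries of the same group correlated across tested genes with a Pearson r of 0.995 in both groups, against 0.930 to 0.938 between groups. All 8 macrophage markers were present, with a summed level of 5237 and 5414 scaled CPM in Gel and 8410 to 8681 in CuNZ@Gel. Lyz2 made up most of that difference, at 3004 and 3155 in Gel and 6000 and 5776 in CuNZ@Gel. Itgam (81.37 and 86.55 against 322.8 and 306) and Adgre1 (77.14 and 84.45 against 139.8 and 149.2) were also at higher values. So were Ptprc (225.9 and 229.9 against 359 and 353.3) and Csf1r (557 and 581.9 against 750.2 and 743.4). Cd68 (1002 and 1003 against 880 and 834) and Fcgr1 (72.8 and 68.1 against 39.2 and 39.98) were at lower values. Spi1 overlapped between groups. All 6 fibroblast and all 5 epithelial markers stayed under 1 scaled CPM in every library. Cd3e, Cd3g and Ms4a1 were at 0 in all 4 libraries, and Cd3d was at 0 in both Gel libraries and at 0.126 and 0.444 scaled CPM in CuNZ@Gel. The 3 endothelial markers summed to 0.0725 to 0.156 scaled CPM in Gel and 1.84 to 2.65 in CuNZ@Gel, in CuNZ@Gel most of it Pecam1, and the B cell markers Cd79a and Cd79b to 0.362 to 0.622 and 1.59 to 2.02. The part of these markers in the results was not tested.

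Most of the 52 transcripts were lower with CuNZ@Gel as scaled by the authors. Of the 52 genes, 34 fell and 5 rose at a limma adjusted p under 0.05, and 13 did not pass the test. Among all 11588 tested genes 34.8% were lower and 32.2% higher by the same test, 67.1% in all. The median log2 change was -0.37 for the 52 genes and -0.03 for all tested genes. Together the 52 genes reached 4790 and 4871 scaled CPM in the 2 Gel libraries and 3705 and 3611 in the 2 CuNZ@Gel libraries, where the sum was 75.7% of the Gel mean. As a share of all reads they took 0.452% ± 0.00525 (SD, n = 2) in Gel and 0.391% ± 0.00628 (SD, n = 2) in the CuNZ@Gel libraries. Both CuNZ@Gel libraries lay below both Gel libraries for 37 genes and above them for 8, against 43.5% and 39.8% of all tested genes. The groups overlapped for the remaining 7. A fall of at least 1 on the log2 scale was called for 9 of the 52 (6.12% of all tested genes) and a rise of that size for 2 (7.06%).

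The scaling of the libraries bears on the smaller changes. With libraries scaled by total reads only, the median log2 change of all tested genes moved up by 0.18, and the changes of the 52 genes moved up by 0.17 to 0.19. Then 26 of the 52 were lower and 12 higher, where 24.7% and 43.4% of all tested genes were. Lower genes made up 51.9% of all calls as scaled by the authors and 36.3% by total reads. The median of the 52 genes lay 0.34 below that of all tested genes under both scalings. That gap could hardly change, because new library factors move the log2 changes of all genes by nearly the same amount. Its likeness under both scalings is therefore no check on the result. Directions given below hold under both scalings unless a sentence says otherwise.

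**Figure D1:**
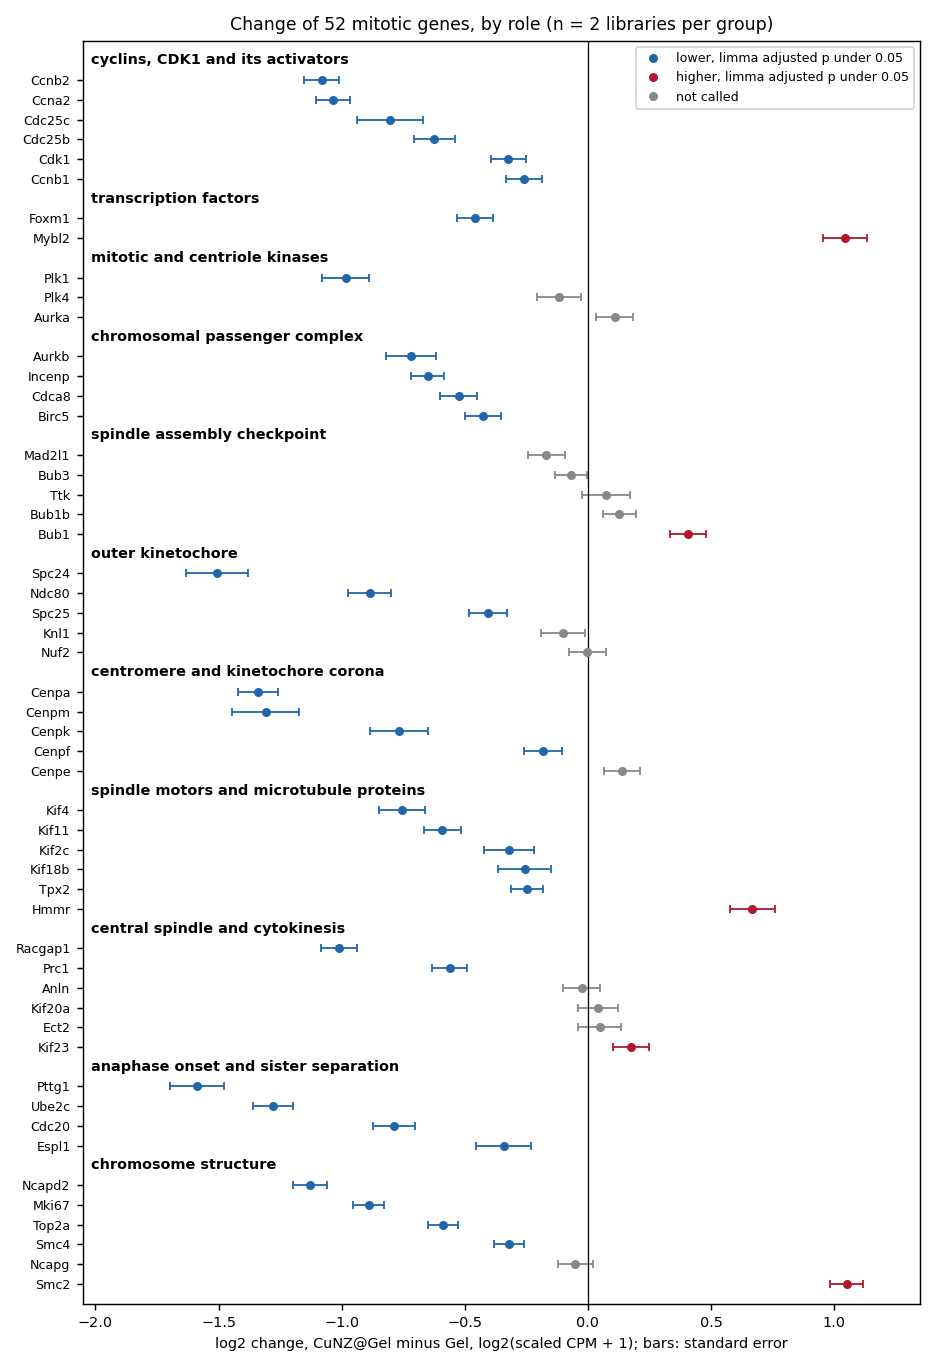
Log2 change (CuNZ@Gel minus Gel, horizontal axis) of each of the 52 genes, grouped by role, with the standard error from limma as bars and colour for the call at an adjusted p under 0.05. Cyclin, passenger complex and anaphase genes lie to the left of 0, from -0.26 for Ccnb1 to -1.59 for Pttg1, while Mybl2 and Smc2 lie furthest to the right, at 1.04 and 1.05.

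Promoters of mitotic genes are known for a pair of sequence elements. One is the cell cycle homology region (CHR), bound by MuvB complexes, and the other is the CCAAT box, bound by NF-Y. RefSeq promoter sequences of build GRCm38.p6, from 250 bases before to 50 bases after a gene's start, were matched by symbol for 43 of the 52 genes and gave 48 windows, some of which overlap because they belong to the same gene. The CHR was searched as TTTGAA or TTCGAA and the CCAAT box as CCAAT, both on either strand, and matches were allowed to overlap. The windows of 5 genes are shown up to the base before the start, because they hold both elements in genes that fell (Ube2c, Cdc20 and Ncapd2), in Ncapg, which did not pass the test, and in Smc2, which rose. Capitals mark CHR and CCAAT matches, and each sequence reads 5′ to 3′ on the gene's strand. The windows are chr2:164769679-164769928 on the plus strand for Ube2c, chr4:118437344-118437593 on the minus strand for Cdc20, chr6:125191587-125191836 on the minus strand for Ncapd2, chr5:45669675-45669924 on the plus strand for Ncapg and chr4:52438971-52439220 on the plus strand for Smc2.
Ube2c: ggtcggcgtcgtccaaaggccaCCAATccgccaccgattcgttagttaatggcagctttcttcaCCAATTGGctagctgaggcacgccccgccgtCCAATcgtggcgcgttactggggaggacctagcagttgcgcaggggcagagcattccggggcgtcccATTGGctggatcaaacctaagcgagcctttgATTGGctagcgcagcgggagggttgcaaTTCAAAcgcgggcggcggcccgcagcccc
Cdc20: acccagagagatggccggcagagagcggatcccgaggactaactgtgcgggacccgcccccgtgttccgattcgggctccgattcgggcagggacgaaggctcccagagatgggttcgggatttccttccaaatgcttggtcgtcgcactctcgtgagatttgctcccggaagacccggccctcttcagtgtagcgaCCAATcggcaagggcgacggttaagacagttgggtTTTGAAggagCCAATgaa
Ncapd2: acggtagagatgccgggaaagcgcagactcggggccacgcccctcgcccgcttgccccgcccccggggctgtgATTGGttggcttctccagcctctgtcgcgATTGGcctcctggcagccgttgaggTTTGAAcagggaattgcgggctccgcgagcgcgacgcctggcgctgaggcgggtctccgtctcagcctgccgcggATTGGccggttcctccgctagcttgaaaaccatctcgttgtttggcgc
Ncapg: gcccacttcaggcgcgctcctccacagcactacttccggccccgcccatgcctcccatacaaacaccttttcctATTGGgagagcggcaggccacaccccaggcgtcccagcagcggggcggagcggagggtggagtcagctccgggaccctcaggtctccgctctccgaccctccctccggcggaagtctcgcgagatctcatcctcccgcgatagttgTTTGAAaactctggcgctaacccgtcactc
Smc2: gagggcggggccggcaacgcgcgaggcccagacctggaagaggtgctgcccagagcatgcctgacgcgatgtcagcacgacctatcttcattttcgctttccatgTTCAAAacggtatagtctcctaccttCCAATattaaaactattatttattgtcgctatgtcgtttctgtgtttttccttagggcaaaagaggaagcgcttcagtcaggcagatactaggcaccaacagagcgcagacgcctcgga

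A CHR match was found in 37 of the 48 windows (77.1%), against 19.2% of all 32851 promoters in the table and 14.7% of the 11554 promoters of tested genes. A CCAAT match was found in 38 of the 48 (79.2%), against 37.4% of all promoters and 38.5% of those of tested genes. Both elements stood in 68.8% of the windows and in 7.52% of all promoters. CHR matches lay close to the start: 33 of 48 matches, in 30 genes, were within 50 bases of it on either side. CCAAT matches lay further upstream, with 51 of 81 in the 100 bases before the start. In the printed Ube2c window 2 of the 6 CCAAT matches overlap, and its single CHR lies from 29 to 24 bases before the start. Of the 34 genes with a CHR, 22 fell and 4 rose, with a median log2 change of -0.37. Of the 9 genes with a window but no CHR, 4 fell and 1 rose, with a median of -0.17. For all 52 genes 34 fell and 5 rose, with a median of -0.37, beside 34.8% and 32.2% of all tested genes. The 9 genes with no matched window are in neither set, and whether the sets differ was not tested. These matches describe letters in a window and not bound sites, and genes with both elements, as in the printed windows, were found among those that fell, those that rose and those that did not pass the test.

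All 6 listed genes for cyclins, CDK1 and its activating phosphatases fell. Ccna2, the A-type cyclin of dividing somatic cells, stood at 153 and 156 scaled CPM in Gel replicates 1 and 2 and at 75.6 and 74.3 in CuNZ@Gel replicates 1 and 2, the order used for all values below. Its level was therefore 48.5% of that in Gel, a log2 change of -1.04 ± 0.067 SE with a limma adjusted p of 1.91e-11. Ccnb2, a B-type cyclin, stood at 117 and 116 in Gel and 56.5 and 52.7 in CuNZ@Gel (-1.08 ± 0.073 SE, limma adjusted p of 3.58e-11). For both cyclins the libraries of a group lay close together and the groups far apart. Ccnb1, the B-type cyclin that is required for division, changed much less, from 85.4 and 88.3 to 70.6 and 74.1 scaled CPM (-0.26, limma adjusted p of 0.00339). Cdk1, the kinase itself, went from 89.6 and 91.4 to 71.8 and 72.5 (-0.32, limma adjusted p of 4.44e-04). Scaled by total reads, neither Ccnb1 (-0.07) nor Cdk1 (-0.14) passed. Cdc25b and Cdc25c, phosphatases that switch CDK1 on, fell by 0.62 and 0.80 on the log2 scale. Cdc25b stood at 66.5 and 73.03 scaled CPM in Gel and 46.97 and 42.9 in CuNZ@Gel. Cdc25c stood at 17.2 and 15.02 scaled CPM in Gel and 8.13 and 9.45 in CuNZ@Gel. Both phosphatase genes lay wholly lower in CuNZ@Gel, as did 43.5% of all tested genes.

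The transcription factors of this programme moved apart. Foxm1, a forkhead factor that drives late cell cycle genes, stood at 85.9 and 84.2 scaled CPM in Gel and 61.5 and 61.8 in CuNZ@Gel (-0.46 ± 0.073 SE, limma adjusted p of 1.22e-05). Mybl2, which encodes B-MYB, stood at 25.5 and 23.9 in Gel and 51.5 and 52.4 in CuNZ@Gel, a 2.10-fold rise (1.04 ± 0.090 SE, limma adjusted p of 1.99e-09). The groups overlapped for neither gene, where 43.5% of all tested genes lay wholly lower and 39.8% wholly higher in CuNZ@Gel. The ratio of Mybl2 to Foxm1 within a library was 0.297 and 0.284 in Gel and 0.838 and 0.848 in CuNZ@Gel. Ratios of this kind carry no test here, because an exact two-sided permutation of 2 against 2 libraries cannot give a p below 0.333.

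Of 3 other mitotic and centriole kinases, 1 fell. Plk1, the polo-like kinase of mitotic entry and spindle formation, stood at 50.7 and 44.4 scaled CPM in Gel and 23.5 and 23.5 in CuNZ@Gel, 49.4% of the Gel mean (-0.98 ± 0.096 SE, limma adjusted p of 1.23e-08). Aurka, the aurora kinase of centrosomes and spindle poles, stood at 64.8 and 65.9 in Gel and 67.8 and 73.4 in CuNZ@Gel and did not pass (0.11, limma adjusted p of 0.215). It passed as higher when libraries were scaled by total reads (0.29) and after a correction for transcript length and GC content (0.31). Plk4, which starts centriole duplication, stood at 37.5 and 41.7 in Gel and 36.8 and 35.9 in CuNZ@Gel. It had a log2 change of -0.12 and did not pass, but turned to 0.07 by total reads and passed as lower after the length and GC correction (-0.19).

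All 4 genes of the chromosomal passenger complex fell, within a narrow range. This complex corrects faulty attachments and later directs cytokinesis. Aurkb, its kinase, stood at 46.6 and 55.3 scaled CPM in Gel and 33.04 and 28.1 in CuNZ@Gel (-0.72). Incenp, its scaffold, stood at 191 and 173 in Gel and 112 and 119 in CuNZ@Gel (-0.65), Cdca8, which encodes borealin, at 76.8 and 78.01 in Gel and 52 and 55.02 in CuNZ@Gel (-0.53), and Birc5, which encodes survivin, at 89.3 and 91.03 in Gel and 64.8 and 68.99 in CuNZ@Gel (-0.43). The limma adjusted p of the 4 lay between 3.78e-08 for Incenp and 3.06e-05 for Birc5. No CuNZ@Gel library reached a Gel library for any of the 4, as was so for 43.5% of all tested genes. Aurkb thus fell while its relative Aurka did not pass, and the ratio of Aurkb to Aurka within a library went from 0.719 and 0.839 to 0.487 and 0.382.

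Centromere genes held some of the deepest falls. Cenpa, the histone variant that marks centromeres, stood at 93.6 and 92.2 scaled CPM in Gel and 34.04 and 38.3 in CuNZ@Gel, 38.9% of the Gel mean (-1.34 ± 0.081 SE, limma adjusted p of 6.94e-12). Cenpm, of the inner centromere network, went from 18.04 and 16.1 to 6.49 and 6.09 (-1.31 ± 0.136 SE, limma adjusted p of 3.19e-08), and Cenpk, of the same network, from 21.5 and 20.8 to 11.9 and 12.2 (-0.77). Cenpf, a large protein of the kinetochore corona, stood at 73.5 and 81.5 in Gel and 68.3 and 67.97 in CuNZ@Gel and only just passed (-0.18, limma adjusted p of 0.0409). It did not pass without Gel replicate 2 (-0.11), CuNZ@Gel replicate 1 (-0.185) or CuNZ@Gel replicate 2 (-0.179), nor by total reads (0.005), yet after the length and GC correction it fell by 0.71. Cenpe, a kinesin that carries chromosomes to the spindle equator, stood at 71.9 and 75.1 in Gel and 83.2 and 78.7 in CuNZ@Gel and did not pass (0.14). It passed as higher by total reads (0.32) and as lower after the length and GC correction (-0.27), and of the 52 genes it alone was called in opposite directions.

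Within the outer kinetochore, partners in a single complex differed. The NDC80 complex, which grips microtubules, is built from Ndc80, Nuf2, Spc24 and Spc25. Spc24 went from 32.5 and 29.9 to 9.08 and 11.7 scaled CPM, 33.4% of the Gel mean (-1.51 ± 0.125 SE, limma adjusted p of 1.06e-09). Ndc80 went from 77.7 and 81.1 to 46.7 and 38.6 (-0.89 ± 0.088 SE, limma adjusted p of 1.70e-08), and Spc25 from 70.01 and 68.5 to 51.7 and 52.4 (-0.41 ± 0.077 SE, limma adjusted p of 9.19e-05). Nuf2 stood at 78.9 and 75.3 in Gel and 73.6 and 80.4 in CuNZ@Gel, so that its groups overlapped (-0.003, limma adjusted p of 0.975). Its sign followed the scaling, with 0.02 by relative log expression factors, 0.03 by upper-quartile factors and 0.18 by total reads, where it passed as higher. Per kilobase of the longest transcript, the mean levels of Ndc80, Nuf2, Spc24 and Spc25 in Gel were 20.6, 19.8, 18.4 and 37.0 scaled CPM. In CuNZ@Gel these levels per kilobase were 11.1, 19.8, 6.14 and 27.8. By this length, 3 of the 4 transcripts stood at like levels in Gel and not in CuNZ@Gel. The longest annotated transcript may not be the one expressed, so likeness between genes depends on that choice. The log2 change of each gene as scaled by the authors does not. Knl1, the scaffold that recruits checkpoint proteins, did not pass, at 53.5 and 61.6 in Gel and 57.7 and 49.6 in CuNZ@Gel scaled CPM. Its log2 change was -0.10, which became -0.51 and passed after the length and GC correction and 0.09 by total reads.

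**Figure D2:**
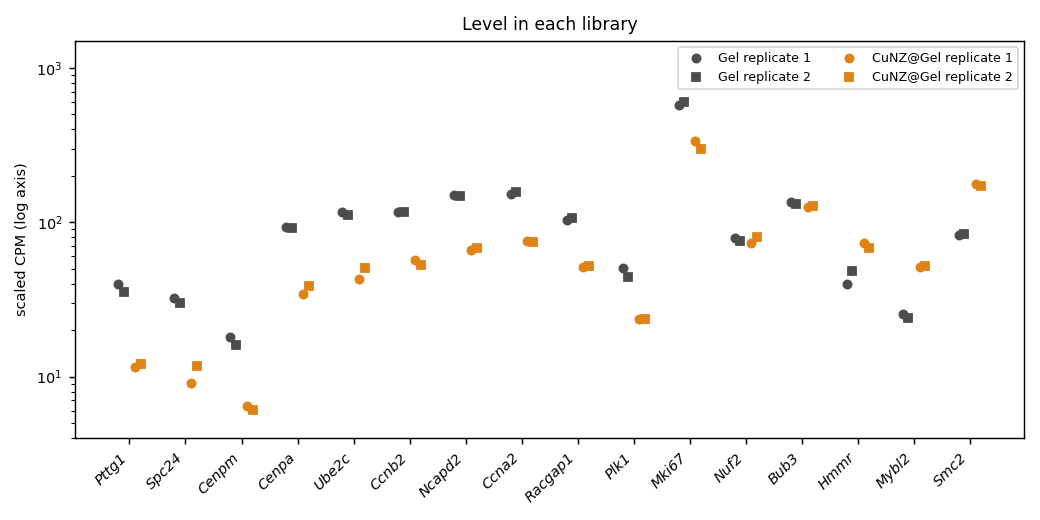
Scaled CPM (log axis) of 16 of the 52 genes in each of the 4 libraries, circles for replicate 1 and squares for replicate 2, grey for Gel and orange for CuNZ@Gel. From Pttg1 to Mki67 both orange points lie below both grey points, for Nuf2 the groups overlap at 73.6 to 80.4, Bub3 did not pass the test, and Hmmr, Mybl2 and Smc2 lie higher in CuNZ@Gel.

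Of the 5 spindle assembly checkpoint genes 1 rose and none passed as lower. Bub1, a kinase that marks centromeric chromatin, rose from 77.9 and 83.4 to 112 and 103 scaled CPM (0.41 ± 0.073 SE, limma adjusted p of 5.06e-05). Bub1b, which encodes the APC/C inhibitor BUBR1, stood at 126 and 122 in Gel and 134 and 137 in CuNZ@Gel (0.13) and did not pass, although it passed as higher by total reads (0.32), by relative log expression factors (0.15), by upper-quartile factors (0.16) and after the length and GC correction (0.13). Its partner Bub3 stood at 135 and 131 in Gel and 125 and 128 in CuNZ@Gel (-0.07), and Ttk, the MPS1 kinase at the head of the pathway, at 31.5 and 31.3 in Gel and 35.4 and 30.8 in CuNZ@Gel (0.07). Mad2l1, which binds and holds CDC20, stood at 67.8 and 66.6 in Gel and 59.4 and 60.1 in CuNZ@Gel (-0.17, limma adjusted p of 0.0543). Bub3 and Mad2l1 turned to 0.12 and 0.02 by total reads without passing, and both passed as lower after the length and GC correction (-0.17 and -0.57). Mad2l1 was corrected there with a length of 7557 bases, that of its longest annotated transcript, which may not be the one expressed. Ttk passed as higher by total reads (0.26). The groups overlapped for Ttk alone of the 5. Of all tested genes 43.5% lay wholly lower and 39.8% wholly higher in CuNZ@Gel, so groups that lie apart were common.

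Genes of anaphase onset, the step that the checkpoint restrains, fell in all 4 cases and held the deepest fall of the 52. Pttg1, which encodes securin, the guardian of the cohesin-cutting protease, went from 39.7 and 35.3 to 11.5 and 12.1 scaled CPM, 31.5% of the Gel mean (-1.59 ± 0.110 SE, limma adjusted p of 5.84e-11). Ube2c, the ubiquitin-conjugating enzyme that works with the APC/C and whose promoter is shown above, stood at 117 and 111 in Gel and 42.8 and 50.4 in CuNZ@Gel, 40.8% of the Gel mean (-1.28 ± 0.082 SE, limma adjusted p of 1.64e-11). Cdc20, the activator of the APC/C, went from 65.7 and 59.4 to 35.1 and 36.5 (-0.79 ± 0.085 SE, limma adjusted p of 5.98e-08). Espl1, the protease separase itself, fell least, from 25.6 and 23.1 to 20.2 and 17.8 (-0.34, limma adjusted p of 0.0102). It did not pass without Gel replicate 1 (-0.27), without CuNZ@Gel replicate 2 (-0.26) or by total reads (-0.16), and it fell by 0.54 after the length and GC correction.

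Among spindle motors and microtubule proteins 5 of 6 fell. Kif11, the motor that pushes spindle poles apart, went from 97.1 and 106 to 68.9 and 64.98 scaled CPM (-0.59), and Kif4, a chromosome-bound kinesin, from 46.4 and 43.05 to 25.8 and 26.3 (-0.76). Tpx2, which activates aurora A on the spindle, went from 164 and 171 to 143 and 139. It fell by 0.25, but not by total reads (-0.06), and by 0.38 after the length and GC correction. Kif2c and Kif18b, kinesins that act at microtubule ends, changed by -0.32 and -0.26. Kif2c stood at 31.5 and 33.6 in Gel and 27.9 and 23.9 in CuNZ@Gel, and Kif18b at 25.6 and 26.6 and then 23.3 and 20.2. Neither was steady: Kif2c did not pass without Gel replicate 2 (-0.28) or CuNZ@Gel replicate 2 (-0.21). Kif18b did not pass without Gel replicate 1 (-0.28), Gel replicate 2 (-0.23) or CuNZ@Gel replicate 2 (-0.16). By total reads they stood at -0.14 and -0.08 without passing, and Kif18b at -0.17 after the length and GC correction. Hmmr, a spindle and centrosome protein first known as a hyaluronan receptor, moved the other way, from 40.1 and 48.5 to 73.5 and 67.8 scaled CPM (0.67 ± 0.090 SE, limma adjusted p of 1.44e-06).

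Cytokinesis genes were divided. Racgap1, the GTPase-activating member of the centralspindlin complex, went from 103 and 107 to 51.2 and 52.04 scaled CPM, 49.1% of the Gel mean (-1.01 ± 0.073 SE, limma adjusted p of 1.12e-10). Kif23, the kinesin with which it forms that complex, went the other way, from 73.03 and 77.5 to 86.5 and 83.6 (0.17, limma adjusted p of 0.0393). The rise of Kif23 did not pass without Gel replicate 1 (0.13), Gel replicate 2 (0.22) or CuNZ@Gel replicate 1 (0.15), with a block for replicate number (limma adjusted p of 0.0980), or after the length and GC correction (0.13). Prc1, which bundles the microtubules of the central spindle, fell from 97.2 and 99.1 to 66.4 and 65.9 (-0.56). Anln, Ect2 and Kif20a did not pass. They encode an actin-binding ring protein, an activator of RhoA and a midzone kinesin, had log2 changes of -0.03, 0.05 and 0.04, and had overlapping groups. Anln stood at 72.98 and 74.8 in Gel and 74.2 and 70.95 in CuNZ@Gel, Ect2 at 52.8 and 60.9 and then 61.5 and 55.97, and Kif20a at 57.6 and 63.8 and then 63.7 and 61.1. By total reads Ect2 (0.23) and Kif20a (0.23) passed as higher and Anln stood at 0.16, and after the length and GC correction Anln passed as lower (-0.21). Of the exonic bases of Kif20a, 29.3% overlap exons of Cdc23 on the opposite strand, and the use of strand in counting is not given in the sources used here, so its level is uncertain.

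**Figure D3:**
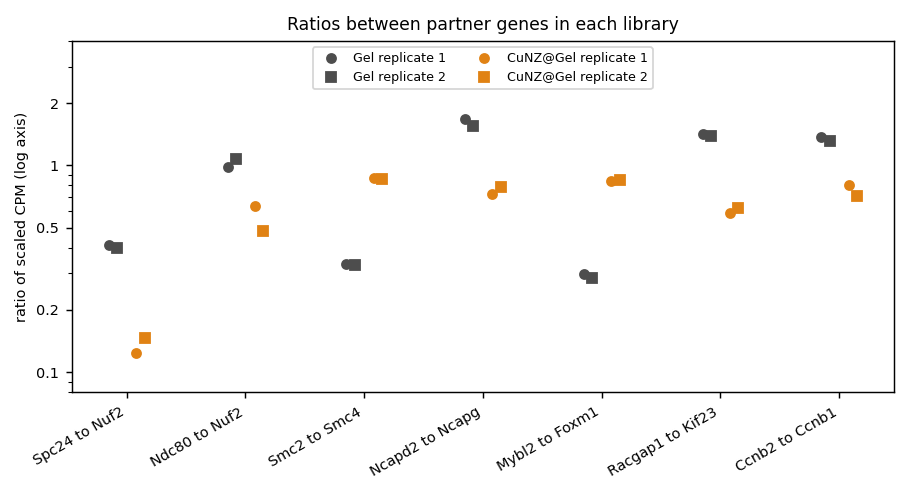
Ratio of the scaled CPM of paired genes within each library (log axis, not corrected for length), circles for replicate 1 and squares for replicate 2, grey for Gel and orange for CuNZ@Gel. The 7 pairs were listed by name and join genes that changed by unlike amounts. That the CuNZ@Gel points of a pair lie wholly above or below its Gel points follows from those changes and carries no test. Single genes lay wholly lower in CuNZ@Gel for 43.5% of all tested genes and wholly higher for 39.8%. Spc24 to Nuf2 fell from 0.412 and 0.397 to 0.123 and 0.146. Smc2 to Smc4 rose from 0.333 and 0.328 to 0.868 and 0.854.

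Of 6 genes of chromosome structure 4 fell and 1, Smc2, rose. Mki67, which encodes the Ki-67 protein that coats mitotic chromosomes and serves as a proliferation marker, went from 574 and 599 to 334 and 298 scaled CPM (-0.89 ± 0.064 SE, limma adjusted p of 9.19e-11), and its log2 change was -0.70 by total reads and -1.37 after the length and GC correction. Top2a, the topoisomerase that untangles sister chromatids, went from 310 and 315 to 215 and 201 (-0.59 ± 0.061 SE, limma adjusted p of 3.36e-08). Condensin, the ring that compacts chromosomes, contains the SMC2 and SMC4 arms and the subunits NCAPD2 and NCAPG. Smc2 rose from 82.8 and 84.1 to 177 and 171, a 2.08-fold difference of the means (1.05 ± 0.066 SE, limma adjusted p of 1.19e-11). Smc4, with which it pairs, went from 248 and 256 to 204 and 200 (-0.32, limma adjusted p of 9.38e-05), a fall that did not pass by total reads (-0.13). Ncapd2 went from 149 and 147 to 66.2 and 68.2, 45.4% of the Gel mean (-1.13 ± 0.068 SE, limma adjusted p of 6.52e-12). Ncapg stood at 89.3 and 95.1 in Gel and 91.5 and 86.4 in CuNZ@Gel with overlapping groups (-0.05), at 0.14 by total reads without passing, and passed as lower after the length and GC correction (-0.17). Per kilobase of the longest transcript, Smc2 and Smc4 stood at 15.4 and 58.4 scaled CPM in Gel and at 32.2 and 46.8 in CuNZ@Gel. By that length their levels lay closer together in CuNZ@Gel. The ratio of Ncapd2 to Ncapg within a library was 1.67 and 1.54 in Gel and 0.724 and 0.790 in CuNZ@Gel.

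Transcript length varied with these changes. Across the 52 genes the log2 change and the log2 length of the longest transcript correlated with a Pearson r of 0.38 and a Spearman rho of 0.34, and across 11107 tested genes with a length the values were 0.28 and 0.34. These are descriptions, since all genes share the same 4 libraries. The 17 genes with the shortest transcripts (1202 to 3089 bases) had a median log2 change of -0.79, with 15 lower and none higher. All tested genes in that range had a median of -0.21, and 46.2% were lower and 21.1% higher. The 17 with the longest transcripts (4316 to 11130 bases) had a median of -0.32, with 12 lower and 1 higher, where all tested genes in that range had a median of 0.22 and 19.6% were lower and 48.5% higher. The 18 in between had a median of -0.06, with 7 lower and 4 higher, where all tested genes in that range had a median of -0.02 and 31.5% were lower and 30.9% higher. After each library was corrected for length and GC content, 40 of the 52 genes were lower and 6 higher, with a median of -0.51, beside 35.5% and 30.6% of all tested genes and a median of -0.04. Of the 34 falls 33 were still called with this correction, and of the 5 rises 4.

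**Figure D4:**
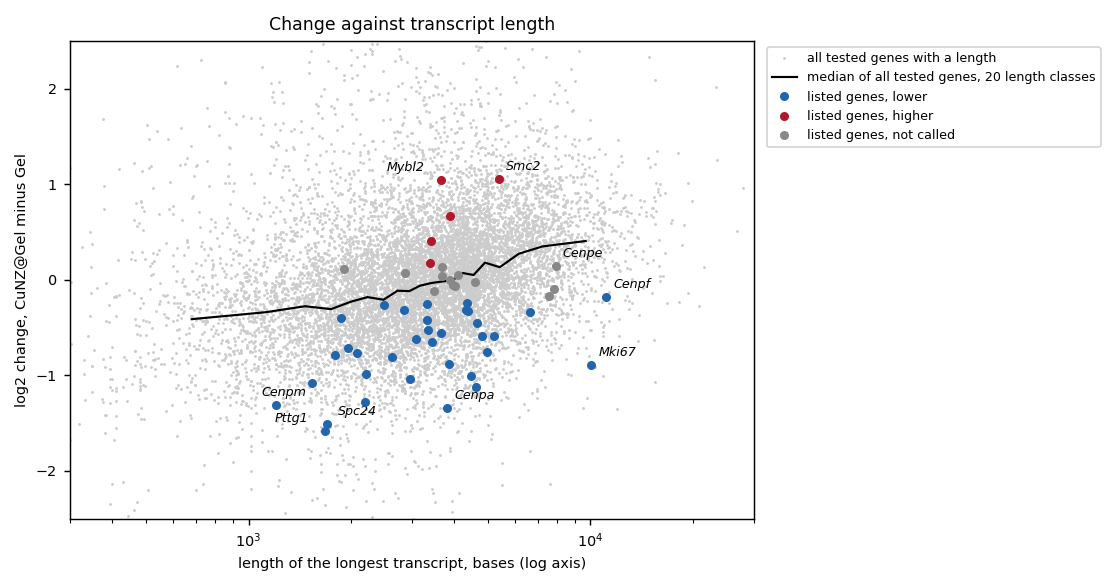
Log2 change (CuNZ@Gel minus Gel) against the length of the longest transcript in bases (log axis). Grey dots are all tested genes with a length, the black line is their median in 20 length classes, and large points are the 52 genes coloured by call. The black line climbs from left to right, and most large points lie below it, Mki67 (-0.89) and Cenpf (-0.18) among the longest and Cenpm (-1.31) the shortest.

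A further 129 genes of the same processes, listed by function but with earlier results of these data known, were all tested. Of these 53 were lower and 34 higher, with a median log2 change of -0.12. Among all tested genes 34.8% were lower and 32.2% higher, with a median of -0.03. By total reads 36 of the 129 were lower and 49 higher (median 0.06), where 24.7% and 43.4% of all tested genes were (median 0.15). Set against 34.8% of all tested genes, lower calls made up 53 of 129 in this wider list and 34 of 52 in the shorter one, and whether the lists differ was not tested. Among 17 APC/C subunits and inhibitors, 9 were lower and 3 higher. Fbxo5, which encodes the inhibitor EMI1, went from 53.04 and 51.2 to 15.7 and 16.1 scaled CPM (-1.66), and Ube2s and Fzr1, a chain-extending ubiquitin enzyme and the activator CDH1, fell as well (-0.98 and -0.92). The other condensin subunits were lower in 3 of 4 cases, with Ncaph2 at -0.80, Ncapd3 at -0.27 and Ncaph at -0.23. By total reads Ncapd3 (-0.09) and Ncaph (-0.04) did not pass. Ncapd3 did not pass without Gel replicate 1 (-0.21), nor Ncaph without Gel replicate 2 (-0.18) or CuNZ@Gel replicate 2 (-0.18). Cohesin genes were lower in 6 of 15 cases and higher in 5: Sgo1, which protects centromeric cohesin, and Rad21, the kleisin of cohesin, fell (-1.004 and -0.42), and the subunit gene Stag2 rose (0.37), though not after the length and GC correction (0.05).

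Genes of the inner centromere and of CENP-A loading were lower in 7 of 18 cases and higher in 7, beside 34.8% and 32.2% of all tested genes. Cenpn and Cenpl fell (-0.88 and -0.74), as did Cenpa, the nucleosome component that their products bind. Of 15 genes of the MIS12, SKA and RZZ complexes and their checkpoint partners, 3 were lower and 3 higher. Ska1, which helps NDC80 hold microtubules, went from 30.1 and 28.02 to 8.63 and 9.14 scaled CPM (-1.60). Zwint and Zwilch, which link to or belong to the RZZ complex that loads checkpoint proteins, rose, Zwint from 37.7 and 40.2 to 114 and 107 (1.48) and Zwilch from 19.6 and 19.5 to 39.2 and 37.7 (0.94). The rise of Zwint was thus larger than any among the 52, where Smc2 rose most (1.05). The fall of Ska1 (-1.60 ± 0.118 SE) was close to that of Pttg1 (-1.59 ± 0.110 SE), the deepest of the 52.

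Further kinesins and spindle assembly genes were lower in 12 of 28 cases and higher in 9. Nusap1, a microtubule-bundling protein, fell from 118 and 122 to 49.98 and 51.97 scaled CPM (-1.22), while Cdk5rap2, a centrosome protein, and Kif20b, a cytokinesis kinesin, rose (0.92 and 0.95). Regulators of mitotic entry and exit were lower in 8 of 20 cases and higher in 3. Gtse1, a microtubule-binding protein that restrains p53, rose from 20.5 and 20.7 to 50.1 and 51.9 (1.27), and the mitotic kinase gene Pbk and Depdc1a fell (-0.75 and -0.88). DREAM and MuvB components were lower in 5 of 12 cases and higher in 4. Rbl2, the pocket protein p130 at the core of DREAM in resting cells, rose from 24.2 and 26.2 to 54.9 and 48.4 (1.004). Tfdp2, a dimer partner of E2F factors, fell (-1.12), as did Dyrk1a, the kinase that promotes DREAM assembly (-0.53). In each of these lists except the other condensin subunits, a list of 4 genes, genes moved both ways. Calls in both directions were common among all tested genes too (34.8% lower and 32.2% higher), so this is no trait of these lists.

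**Figure D5:**
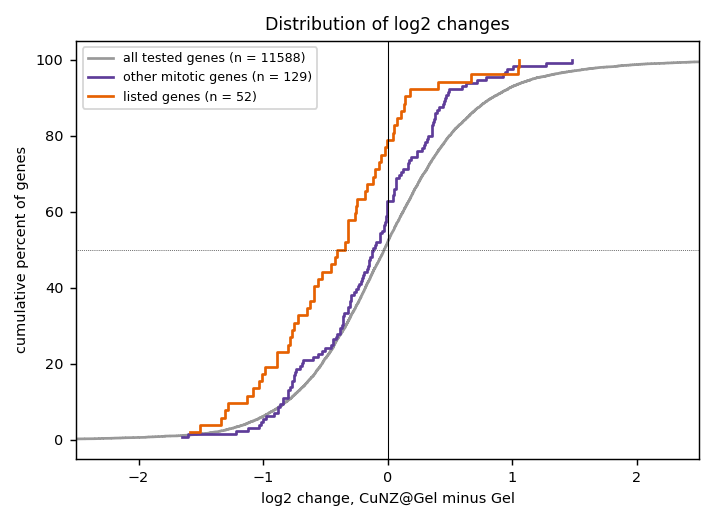
Cumulative percent of genes (vertical axis) by log2 change, CuNZ@Gel minus Gel, for the 52 listed genes, the 129 other mitotic genes and all 11588 tested genes. The curve of the 52 genes lies to the left of the others over most of its course (median -0.37 against -0.12 and -0.03). It ends on the right with Mybl2 (1.04) and Smc2 (1.05). The curve of all tested genes runs lower there, since 7.06% of them were called higher by at least 1.

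Counting could blur some of these values. Exons of a gene on the opposite strand cover 22.8% of the exonic bases of Ube2c, 15.1% of Kif4, 13.4% of Ncapg, 12.7% of Cdc25c, 12.5% of Ccna2 and 11.1% of Prc1. The gene opposite Ube2c, Tnnc2, had a mean of 0.0779 scaled CPM in Gel and 0.189 in CuNZ@Gel. The gene opposite Ccna2, Exosc9, had means of 94.8 and 71.7, and whether reads were shared was not tested. The gene opposite Kif4, Pdzd11, had means of 31.6 and 24.4, beside 44.7 and 26.1 for Kif4 itself. Pseudogene copies were looked for only as a listed symbol followed by -ps. The copy of Ccnb1 found in this way reached at most 2.46 scaled CPM and that of Kif4 was at 0. Copies under other names were not searched.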

How the data were processed

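The deposited files hold log2(x + 1) values, 1 per gene and library, where the authors' x was found to be CPM divided by 1 further factor per library (0.937 and 0.936 in Gel, 1.07 in both CuNZ@Gel libraries); this was read from the values, since the normalization is not given in the sources used here. The tools named per the submitters' processing notes are STAR, Salmon, fastp and GATK, with build GRCm39. Not given in the sources used here are their versions and roles, the annotation, and whether strand or molecular identifiers were used. Values up to 1 scaled CPM were whole multiples of 1 read (within 0.02 reads) for 92.7% to 93.5% of values, which gave the library totals, and 3 reads equal 0.189 to 0.234 scaled CPM.

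The deposited log2 values (pseudocount 1) were compared between the 2 Gel and 2 CuNZ@Gel libraries in limma (version 3.58.1, R version 4.3.3), fitting a mean-variance trend, over genes with 1 scaled CPM or more in 2 or more libraries. Benjamini-Hochberg adjustment ran over all tested genes, and 0.05 was the threshold. All 52 genes are described, and in each related list the 3 called genes with the smallest p are named, except 1 that is not reported here. The members and lists were chosen with earlier results of these data known. Alternatives were other library scalings, limma-voom on the recovered reads, other filters and a pseudocount of 0.1, a block for replicate number, leaving out each library, and a correction for transcript length and GC content by a spline with 5 degrees of freedom. Lengths and GC came from the longest transcript of a GRCm38 annotation, matched by symbol for 95.8% of tested genes and all 52 members, and no coordinates of it were used with the files. The longest transcript was taken whatever its type and may not be the one these cells express. The promoter windows come from that older build too. The fit was tested on simulated data, with 50 changed genes per fold among 11150 tested. It called 26% of 1.25-fold, 86% of 1.5-fold, 96% of 2-fold and 100% of 4-fold changes, and 0.018% of unchanged genes. Fewer genes were changed there than were called in these data, so the shares may differ here. A gene that did not pass may still have changed by a small amount. Other steps used Python 3.11.15 with pandas 2.3.3, numpy 2.4.6 and matplotlib 3.10.9.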

Additional observations from a re-analysis of the deposited data

How the results depend on the processing

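With 14 alternatives, 26 of the 34 falls and 4 of the 5 rises were called in every one. Scaling by total reads gave 12 higher genes among the 52 and a median of -0.19, and the length and GC correction gave a median of -0.51. The cause was not tested. Signs turned by total reads for Plk4 (0.067), Bub3 (0.12), Mad2l1 (0.018), Nuf2 (0.18), Knl1 (0.085), Cenpf (0.0046), Anln (0.16) and Ncapg (0.14). They turned for Nuf2 by relative log expression factors (0.0196) and by upper-quartile factors (0.0265), and for Anln by the latter (0.0034). After the length and GC correction they turned for Cenpe (-0.27), Kif20a (-0.0031) and Ect2 (-0.088). Of these only Cenpf was called as scaled by the authors. Leaving out 1 library at a time gave 30 to 33 lower and 4 to 5 higher genes and medians of -0.41 to -0.37, with 30 of the 34 falls called in all 4 fits, in which the lone library of a group is assumed to vary like the pair of the other. Across these fits the log2 change ranged from -0.025 to 0.17 for Ttk, -0.066 to 0.06 for Nuf2, -0.21 to 0.0075 for Knl1, -0.0325 to 0.11 for Kif20a, -0.0575 to 0.0055 for Anln and -0.0545 to 0.15 for Ect2, none of them called. Without a filter on low values, 31 genes were lower and 4 higher, and Cenpf, Kif2c, Kif18b, Espl1 and Kif23 did not pass. By both other scaling factors Cenpf and Kif18b did not pass.

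The labels give replicate numbers but do not say that a number marks a shared batch or day. With the replicate number as a block, 32 of the 52 genes were lower and 4 higher and 7489 of all tested genes were called; Cenpf, Kif18b and Kif23 did not pass. Deviations of same-numbered libraries from their group mean correlated at -0.116 across 11588 genes, so the crossed pairing was added after seeing the data, and it gave 35 lower and 7 higher among the 52 and 8370 calls in all. The 5 genes that lost their call when a library was left out (Cenpf, Kif18b, Kif2c, Espl1 and Kif23) had changes of -0.34 to 0.175, while others of like size, such as Ccnb1 (-0.26) and Tpx2 (-0.25), did not lose it.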
